A study of Mus musculus with 8 samples.

Results

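The 10 transcripts described here are messenger RNAs of the mitochondrial genome that code for subunits of the respiratory chain and of ATP synthase. They were chosen by identifier from the 110473 transcripts listed for each RNA library, and all 10 were found and all 10 passed the filter on low counts that kept 32944 transcripts. Granulosa cells, which line the ovarian follicle around the oocyte, were taken by puncture of the ovary from C57BL/6 mice aged 22 to 25 days. Every mouse carried floxed Nr5a2, the gene of the nuclear receptor LRH-1, and had received 5 IU of equine chorionic gonadotropin (eCG) to grow its follicles. Control mice (CTL, Nr5a2 f/f Amhr2 Cre/-) had no Cre, and conditional knockout mice (cKO, Nr5a2 f/f Amhr2 Cre/+) carried Cre recombinase under the promoter of the anti-Müllerian hormone receptor type II, which acts in granulosa cells from the primary follicle on. Cells were collected either at 0 h, 44 h after eCG and with no second hormone, or 4 h after 5 IU of human chorionic gonadotropin (hCG), the hormone that sets off ovulation. Each of the 4 groups had 3 RNA libraries made from 300 ng of RNA, and replicate numbers are those of the deposited tables. The sources used here do not say how many mice stand behind a library, so a p-value measures only how far these libraries spread, which may be technical.

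The mitochondrial genome codes for core subunits of complexes I, III and IV, which pass electrons to oxygen and pump protons, and of complex V, the ATP synthase that the proton gradient drives. Its messenger RNAs are cut from long transcripts of the heavy strand, except mt-Nd6, which lies on the light strand. In the ovary the same organelles hold the first step of steroid synthesis, the cleavage of the cholesterol side chain, which granulosa cells take up in force as they turn into luteal cells after the ovulatory signal.

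Of the 10 transcripts, 5 belong to complex I (NADH dehydrogenase): mt-Nd1 (ENSMUST00000082392), mt-Nd2 (ENSMUST00000082396), mt-Nd4 (ENSMUST00000082414), mt-Nd5 (ENSMUST00000082418) and mt-Nd6 (ENSMUST00000082419). Complex III, the cytochrome bc1 complex, has mt-Cytb (ENSMUST00000082421). Complex IV, cytochrome c oxidase, has its catalytic core mt-Co1 (ENSMUST00000082402), mt-Co2 (ENSMUST00000082405) and mt-Co3 (ENSMUST00000082409). Complex V has mt-Atp6 (ENSMUST00000082408), a membrane subunit of the proton channel. The deposited tables give identifiers without gene names. The names were checked by length: the listed lengths of 10 of 10 transcripts, from 519 bases for mt-Nd6 to 1824 bases for mt-Nd5, equal those of the mitochondrial genes in RefSeq (assembly GRCm38.p6). Because no source used here pairs transcripts with nuclear gene names, the loss of Nr5a2 in the cKO libraries, granulosa cell markers and the nuclear subunits of the respiratory chain were not checked here.

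Library totals ran from 9250965 to 23753060 estimated counts. Detected transcripts, those with an estimated count above 0, ran from 11784 in CTL replicate 2 after hCG to 40660 in cKO replicate 3 before hCG. Their group means were 29292 in CTL and 34059 in cKO before hCG, and 20575 and 18208 after hCG (n = 3). How far this difference moved the shares and the medians over all transcripts was not tested. A set of 3 libraries was treated as standing apart from the other 9: replicate 1 of both CTL groups and replicate 1 of cKO before hCG. The set was named by hand with earlier results of these data known. Correlations of log2(CPM + 1), where CPM scales the counts to the library total, were taken over 14043 transcripts without the 10. The median was 0.399 among these 3 (range 0.378 to 0.511), 0.291 among the other 9 (0.156 to 0.514) and 0.211 between the sets (0.0874 to 0.307). The 3 thus correlated with each other above any pair between the sets, while the range among the other 9 overlapped both. In bulk samples such as these, fewer cells of a type and less RNA per cell cannot be told apart. Differences between groups are given with and without the 3 libraries.

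Together the 10 transcripts took from 0.608% to 11.4% of a library's estimated counts, and the libraries that stand apart held the most. In CTL before hCG the share was 5.93%, 1.67% and 0.828% in replicates 1, 2 and 3. CTL after hCG had 11.4%, 2.80% and 1.28%. Before hCG, cKO libraries had 5.77%, 0.608% and 1.14%, and after hCG they had 0.932%, 0.984% and 2.78%. The 3 libraries that stand apart thus lay between 5.77% and 11.4%, and the other 9 between 0.608% and 2.80%, with no overlap. Since the set was named with earlier results known, this gap is not separate evidence that the set differs. The group means were 2.81% ± 2.74 in CTL before hCG, 5.15% ± 5.44 in CTL after hCG, 2.51% ± 2.84 in cKO before hCG and 1.57% ± 1.05 in cKO after hCG (SD, n = 3). The groups overlapped. Without the libraries that stand apart the means of the first 3 groups were 1.25%, 2.04% and 0.875% (n = 2), in the same order as before, and cKO after hCG moved from the lowest of the 4 means to the second highest.

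**Figure D1:**
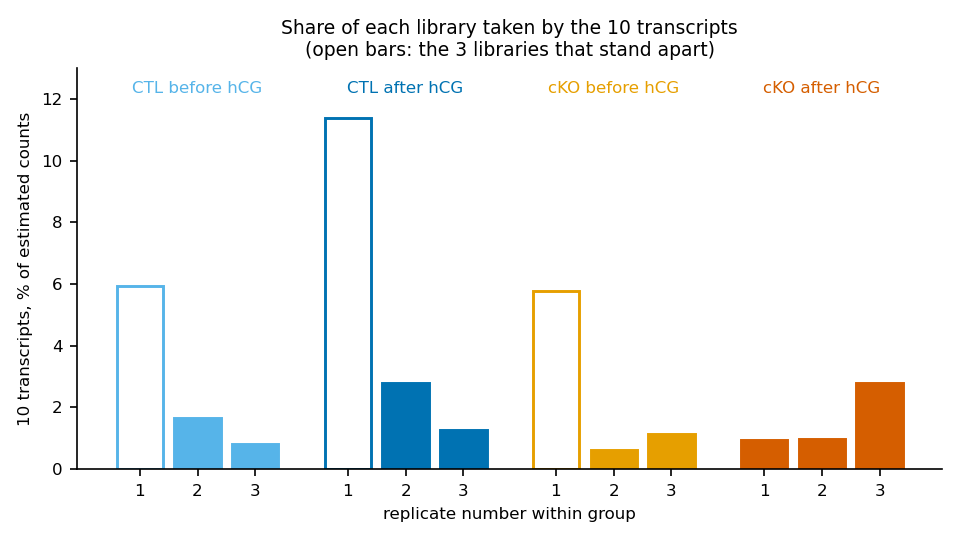
Share of all estimated counts taken by the 10 transcripts (vertical axis, percent) in each of the 12 libraries (bars), grouped by genotype and time. The 3 open bars, replicate 1 of CTL before hCG, CTL after hCG and cKO before hCG, lie between 5.77% and 11.4%, and the 9 filled bars lie at or under 2.80%.

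Levels of the 10 transcripts are given as TPM, a share of all transcripts of the library that divides by effective length so that transcripts can be set side by side. Within a group the SD of the 3 libraries was from 24.3% of the mean (mt-Atp6 in cKO after hCG) to 150% of it (mt-Nd2 in cKO before hCG). This spread between replicates is the scale against which each difference below has to be read. Effective lengths differed between libraries by at most 1.25-fold, for mt-Nd6, the shortest of the 10.

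Among complex I subunits, mt-Nd2 had the lowest median level of all 10 transcripts, 531.9 TPM over 12 libraries. It stood at 8428, 540.4 and 462 TPM in CTL before hCG, 13845, 1125 and 523 TPM in CTL after hCG, 6795, 158 and 516 TPM in cKO before hCG, and 358, 380.4 and 1434 TPM in cKO after hCG. The 3 libraries that stand apart were the highest, from 6795 TPM up, and no other library exceeded 1434 TPM, so the group ranges overlapped throughout. mt-Nd6, the light strand transcript, stood at 9555, 6203 and 1685 TPM in CTL before hCG and at 16966, 3488 and 2854 TPM in CTL after hCG. Its cKO values were 10594, 2791 and 1684 TPM before hCG and 604, 3584 and 3681 TPM after hCG. For this transcript CTL replicate 2 before hCG came close to the libraries that stand apart, and the lowest library was cKO replicate 1 after hCG. mt-Nd1 ranged from 457 to 9918 TPM, mt-Nd4 from 764 to 11507 TPM and mt-Nd5 from 424 to 12344 TPM over the 12 libraries. Each of the 3 was lowest in cKO replicate 2 before hCG and highest in CTL replicate 1 after hCG. The order of mt-Nd4 over mt-Nd1 held in 12 of 12 libraries.

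mt-Cytb, the one complex III subunit coded by the mitochondrial genome, was among the most abundant of the 10 in every library, never below the 4th place. It measured 9515, 3454 and 1864 TPM in CTL before hCG, 18927, 5993 and 2635 TPM in CTL after hCG, 9157, 1540.5 and 2278 TPM in cKO before hCG, and 1477.5, 1728 and 5720.0 TPM in cKO after hCG. High values again came from replicate 1 of 3 groups, while in cKO after hCG replicate 3 was highest, and all groups overlapped.

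Of the complex IV subunits, mt-Co1 had the smallest ratio of highest to lowest library of the 10, at 3630.3, 2725 and 1380.3 TPM in CTL before hCG, 5619.9, 2686 and 2037 TPM in CTL after hCG, 3407, 861 and 2083 TPM in cKO before hCG, and 921, 1365 and 4009 TPM in cKO after hCG. mt-Co3 went alongside it, with 4944, 2406 and 1249.98 TPM in CTL before hCG, 8009, 3162 and 2105 TPM in CTL after hCG, 5342, 929 and 2019 TPM in cKO before hCG, and 1114, 1455 and 5429 TPM in cKO after hCG. cKO replicate 3 after hCG was the second highest library of both. mt-Co2 had the largest ratio of highest to lowest library, with 11842, 920.4 and 481 TPM in CTL before hCG, 20076, 1759 and 1011 TPM in CTL after hCG, 10797, 230.1 and 1126 TPM in cKO before hCG, and 83.3, 90.5 and 895 TPM in cKO after hCG. Its 2 lowest libraries were both from cKO after hCG, and all 3 libraries of that group lay below all 3 of CTL after hCG.

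mt-Atp6 of complex V stood at 11423, 2260.2 and 611 TPM in CTL before hCG, 23746, 7200.3 and 3296 TPM in CTL after hCG, 12275, 541 and 2896 TPM in cKO before hCG, and 1222, 1988 and 1539.8 TPM in cKO after hCG. The 3 libraries of cKO after hCG again lay below the 3 of CTL after hCG. The TPM of CTL and cKO after hCG did not overlap, with cKO lower, for 2 of 10 transcripts, mt-Co2 and mt-Atp6, where 3.09% of the 32944 transcripts tested did so (4.51% in either direction). In the other comparisons of 2 groups 0 of 10 transcripts separated the groups, against 9.83% of all transcripts for hCG in CTL, 18% for hCG in cKO and 6.44% for cKO before hCG. Without the 3 libraries that stand apart mt-Co2 and mt-Atp6 were still the 2 that separated CTL (n = 2) from cKO after hCG, where 6.07% of all transcripts were lower without overlap (8.55% in either direction). The same 2 transcripts then also separated CTL before from CTL after hCG (n = 2 each), with higher values after hCG. Of all transcripts, 5.04% were higher there without overlap (28% in either direction). For hCG in cKO and cKO before hCG the number stayed at 0 of 10, against 27.7% and 26.2% of all transcripts.

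**Figure D2:**
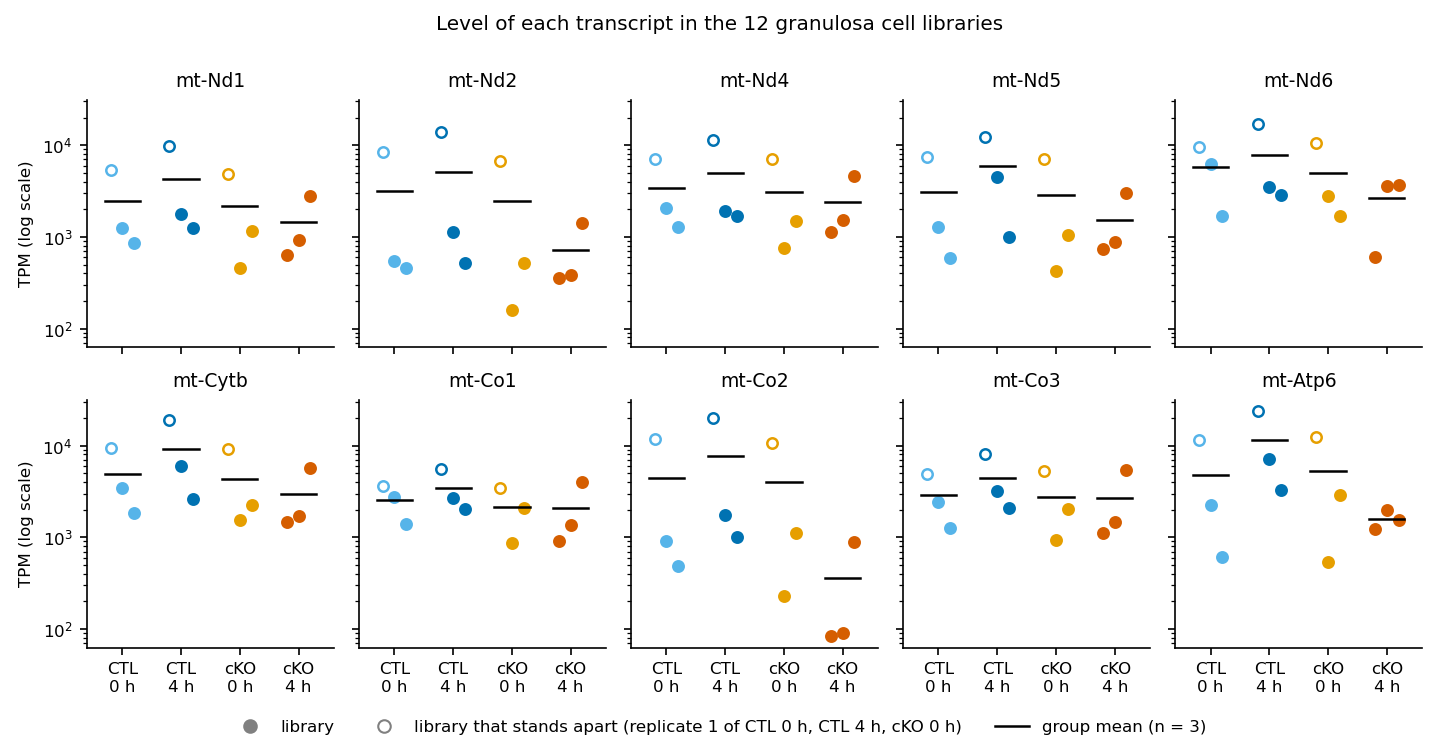
TPM (log scale) of each of the 10 transcripts in the 12 libraries by group (CTL and cKO at 0 h and 4 h after hCG), with points for libraries, open points for the 3 libraries that stand apart and bars for group means (n = 3). Open points lie above the filled points of their own group in every panel, and for mt-Co2 and mt-Atp6 all points of cKO at 4 h lie below those of CTL at 4 h.

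By median TPM over the 12 libraries the order ran from mt-Nd6 (3536) over mt-Cytb (3044), mt-Atp6 (2578), mt-Co1 (2384), mt-Co3 (2256), mt-Nd4 (1801), mt-Nd1 (1250.1), mt-Nd5 (1174) and mt-Co2 (966) to mt-Nd2 (531.9). Neighbours in this order did not keep it across libraries: apart from mt-Nd4 over mt-Nd1, a neighbouring pair held the order in 3 to 9 of 12 libraries. The order also differed between the sets of libraries. mt-Co2 ranked at a median of 2nd in the 3 libraries that stand apart and 9th in the other 9, and mt-Co1 10th and 4th.

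The make-up of the 10 within a library differed the same way. mt-Co2 made up 15.0%, 14.2% and 14.0% of the summed TPM of the 10 in the 3 libraries that stand apart, and from 0.649% to 6.92% in the other 9 libraries. mt-Nd2 made up 10.7%, 9.82% and 8.79% in those 3 and at most 4.42% elsewhere. mt-Co1 went the other way, with 4.59%, 3.99% and 4.41% in those 3 and from 8.01% to 13.2% in the other 9. When summed by complex the sets overlapped: complex I made up 45.8% to 47.7% of the TPM of the 10 in the 3 libraries and 36.1% to 52.8% in the other 9, and complex IV 23.9% to 25.8% and 20.9% to 32.1%. mt-Nd6 stood at 0.656 to 5.16 times the median transcript of the heavy strand over the 12 libraries, and this ratio overlapped between all 4 groups.

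**Figure D3:**
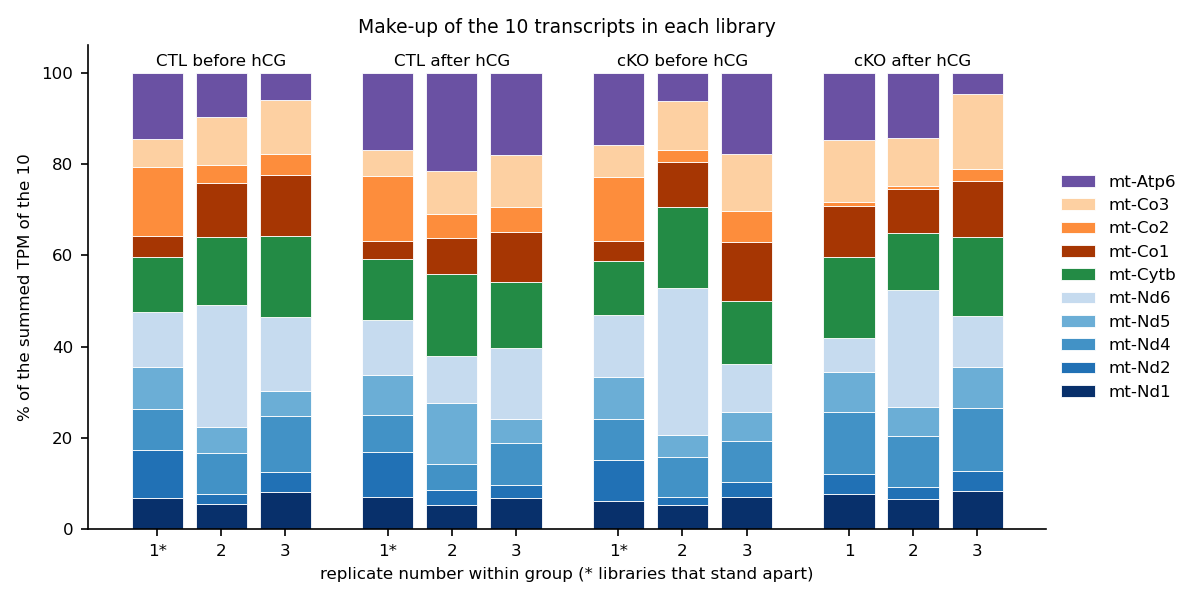
Share of each transcript in the summed TPM of the 10 (vertical axis, percent) for each library (bars), with stars on the 3 libraries that stand apart. mt-Co2 takes 14.0% to 15.0% of the starred bars and at most 6.92% of the others, and its smallest shares, 0.649% and 1.01%, are in cKO replicates 2 and 1 after hCG.

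Ratios to mt-Co3 set the transcripts of 1 library against each other. mt-Co3 was taken as the base after the values were seen, and its own share of the summed TPM of the 10 was 5.68% to 6.91% in the libraries that stand apart and 9.43% to 16.4% in the other 9, so each ratio carries this difference. mt-Co2 to mt-Co3 was 2.40, 0.383 and 0.385 in CTL before hCG, 2.51, 0.556 and 0.480 in CTL after hCG, 2.02, 0.248 and 0.558 in cKO before hCG, and 0.0748, 0.0622 and 0.165 in cKO after hCG. The 3 lowest of the 12 ratios were the 3 libraries of cKO after hCG, and the 3 highest were the libraries that stand apart. mt-Nd2 to mt-Co3 was 1.27 to 1.73 in the 3 libraries that stand apart and 0.170 to 0.369 in the other 9, among which cKO after hCG (0.261 to 0.322) lay inside the range of the rest. For mt-Atp6 the ratio was 0.284 to 1.37 in cKO after hCG and 1.57 to 2.96 in CTL after hCG, with CTL before hCG at 0.489 to 2.31 and cKO before hCG at 0.582 to 2.30. mt-Nd6 to mt-Co3 ranged from 0.542 to 2.46 in cKO after hCG and from 1.10 to 2.12 in CTL after hCG.

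**Figure D4:**
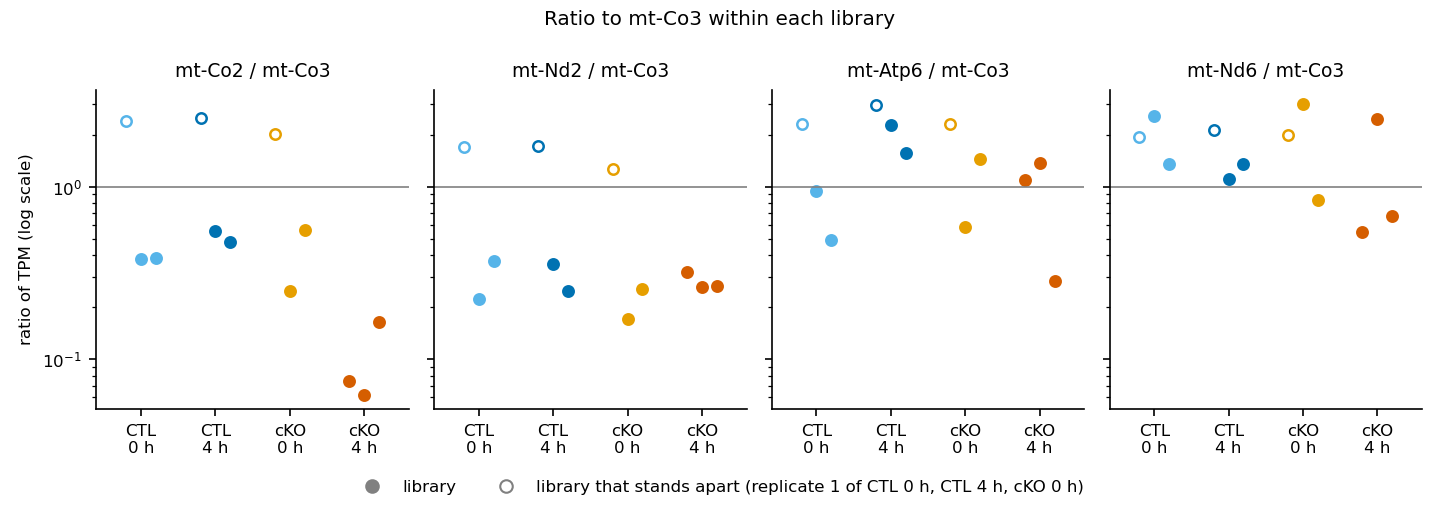
Ratio of the TPM of mt-Co2, mt-Nd2, mt-Atp6 and mt-Nd6 to that of mt-Co3 in the same library (log scale), by group, with open points for the 3 libraries that stand apart. For mt-Co2 the points of cKO at 4 h, 0.0622 to 0.165, are the lowest of the panel, and the open points, 2.02 to 2.51, are the highest.

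How reads were shared out differed among the 10, and this bears on mt-Co2 and mt-Atp6. kallisto splits a read that is compatible with several transcripts, so a fractional count shows that reads were shared. Estimated counts were whole (within 1e-09) in 12 of 12 libraries for mt-Nd1, mt-Nd2, mt-Nd4, mt-Nd6, mt-Cytb and mt-Co3. They were whole in 7 libraries for mt-Nd5, in 4 for mt-Co1, in 2 for mt-Atp6 and in 1 for mt-Co2, so the values of those 4 depend on how shared reads were assigned. A whole count does not show that no reads were shared, since a large count printed with few digits would lose its fraction. The only whole count of mt-Co2 was its largest, 184017 in CTL replicate 1 after hCG. ENSMUST00000188231, one of 100 other transcripts with the 681 bases of mt-Atp6 and singled out after its values were seen, had 1.28 to 6.61 estimated counts in the 3 libraries that stand apart and 8982 to 93801 in the other 9. Its TPM was 0.892 to 5.58 times that of mt-Atp6 in those 9. When both were summed, the value was 23746, 14913 and 6695 TPM in CTL after hCG and 3596, 5108 and 10126 TPM in cKO after hCG, and the groups overlapped. Whether reads of mt-Atp6 were assigned to ENSMUST00000188231 was not tested. For mt-Co2 no such sum was made.

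The hormone comparison asked whether the 10 transcripts changed in the 4 h after hCG. In CTL all 10 had a positive log2 fold change, with a median of 1.32 and a range of 0.89 to 1.80, beside a median of -0.77 over all transcripts tested, but none passed the test. The largest was mt-Atp6, which averaged 4765 ± 5825 TPM before and 11414 ± 10857 TPM after hCG (SD, n = 3). Its log2 fold change was 1.80 (SE 1.12, 95% interval -0.40 to 3.99, adjusted p = 0.432, edgeR quasi-likelihood test with Benjamini-Hochberg adjustment over all transcripts). Of the 10, 0 passed the adjusted threshold of 0.05, where 0.00607% of all transcripts did, and 0 had an unadjusted p under 0.05, where 14.7% of all did. DESeq2 called 0 of 10 and 12.8% of all, where its shares of called transcripts are of those to which it gave an adjusted p, and limma on log2(TPM + 1) called 0 of 10 and 0% of all. All 10 stayed higher under each scaling, with a median of 0.95 with RLE factors, 0.84 with library totals and 5.25 with upper quartile factors, where the median of all transcripts was -1.03, -1.10 and 0. With only transcripts of at least 10 CPM on average, the medians of the 10 and of all were 1.27 and -0.23. The direction rested on single libraries: without CTL replicate 1 after hCG 5 were higher and 5 lower, with a median of -0.0015, and without CTL replicate 1 before hCG all 10 were higher, with a median of 2.54, and 5 of 10 had an unadjusted p under 0.05, with 9.97% of all. Without the 3 libraries that stand apart 9 of 10 were higher, with a median of 1.13 and mt-Nd6 at -0.039.

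In cKO the transcripts did not move one way. After hCG 6 had a higher and 4 a lower fitted level, with a median log2 fold change of 0.31 beside -1.52 over all transcripts. With only transcripts of at least 10 CPM on average, these medians were 0.031 and -0.077. mt-Co2 had the largest difference, from 4051 ± 5859 TPM before to 356 ± 467 TPM after hCG (SD, n = 3), a log2 fold change of -2.51 (SE 1.27, unadjusted p = 0.0481, adjusted p = 0.266 in the edgeR quasi-likelihood test). By edgeR 0 of 10 were called, with 0% of all transcripts called, and 1 of 10 had an unadjusted p under 0.05, with 18.6% of all. DESeq2 called 0 of 10 and 17.4% of all, and limma on log2(TPM + 1) 0 of 10 and 0% of all. The direction of the list depended on the scaling: 5 were higher and 5 lower with RLE factors, 2 and 8 with library totals, 9 and 1 with upper quartile factors. Without cKO replicate 1 before hCG, and equally without the 3 libraries that stand apart, all 10 were higher, with a median of 1.67 and mt-Co2 at 0.092.

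Averaged over both genotypes, 9 of 10 transcripts were higher after hCG and mt-Co2 was lower, with a median log2 fold change of 0.87 beside -1.45 over all transcripts. mt-Co3 had the largest value, 1.06 (SE 0.86, adjusted p = 0.453, edgeR). mt-Co1 had 0.99 (SE 0.73, adjusted p = 0.404, edgeR) and mt-Nd6, the light strand transcript, 0.41 (SE 0.88, adjusted p = 0.843, edgeR). Of the 10, 0 were called by edgeR, with 0.173% of all transcripts, 0 by DESeq2, with 27.5% of all, and 0 by limma on log2(TPM + 1), with 0.0152% of all. In edgeR 0 had an unadjusted p under 0.05, where 23.7% of all did; this became 2 without CTL replicate 1 before hCG (19.6% of all) and 3 without cKO replicate 1 before hCG (19.1% of all). The count of higher transcripts was 8 with RLE factors, 6 with library totals and 10 with upper quartile factors. mt-Nd6 turned to -0.25 with library totals and to -0.32 without CTL replicate 1 after hCG. Set against the median of all transcripts of the same fit, the median of the 10 was higher by 2.32 with TMM, 2.19 with RLE factors, 2.17 with library totals and 3.75 with upper quartile factors. This gap depended on the transcripts and the method used. It was 1.04 with only transcripts of at least 10 CPM on average, and 0.88 with limma on log2(TPM + 1). Without the 3 libraries that stand apart all 10 were higher, with a median of 1.39.

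The genotype comparison asked what the loss of LRH-1 did to these transcripts. Before hCG all 10 had a negative log2 fold change in cKO against CTL, with a median of -0.38 and a range of -0.60 to -0.13, beside 0.11 over all transcripts. The largest was mt-Nd2, at 3143 ± 4577 TPM in CTL and 2489 ± 3733 TPM in cKO (SD, n = 3), a log2 fold change of -0.60 (SE 1.14, 95% interval -2.83 to 1.63, adjusted p = 1, edgeR). edgeR called 0 of 10 (0.00607% of all transcripts), and 0 of 10 had an unadjusted p under 0.05 (6.67% of all), which became 2 of 10 without cKO replicate 1 before hCG (3.81% of all). DESeq2 called 0 of 10 and 4.15% of all, and limma on log2(TPM + 1) 0 of 10 and 0% of all. With the replicate number as a block 9 of 10 were lower, with a median of -0.47, 0 of 10 were called, and the calls over all transcripts went from 2 to 1. All 10 stayed lower without the 3 libraries that stand apart, with a median of -0.50, but 9 of 10 were higher without CTL replicate 1 before hCG and 6 of 10 were higher without either replicate 2 or replicate 3 of cKO before hCG. With library totals 1 of 10 was higher.

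After hCG the differences were larger, with all 10 lower in cKO than in CTL and a median log2 fold change of -1.36 beside 0 over all transcripts. mt-Co2 averaged 7615 ± 10798 TPM in CTL and 356 ± 467 TPM in cKO (SD, n = 3), a log2 fold change of -4.24 (SE 1.37, 95% interval -6.93 to -1.55, unadjusted p = 0.00198, adjusted p = 0.294, edgeR). mt-Nd2 (5164 ± 7524 against 724 ± 615 TPM) and mt-Atp6 (11414 ± 10857 against 1583 ± 385 TPM) followed, with log2 fold changes of -2.61 and -2.47. These 3 had an unadjusted p under 0.05, as 17% of all transcripts did, and 0 of 10 passed the adjusted threshold, as 0.00911% of all did. In DESeq2 1 of 10 had an unadjusted p under 0.05, with 23.1% of all that had a p, and 0 were called, with 16% of all. In limma on log2(TPM + 1) 2 of 10 had one, with 3.44% of all, and 0 were called, with 0% of all. mt-Co1 and mt-Co3 were the nearest to no difference, at -0.46 and -0.45. The median of the 10 was -1.32 with RLE factors, -1.64 with library totals and -3.87 with upper quartile factors, all 10 lower in each. The direction of the 10 rested on CTL replicate 1 after hCG: without it 6 were higher and 4 lower, with a median of 0.14. In that fit 0 of 10 had an unadjusted p under 0.05, with 10.3% of all transcripts. mt-Co2 then stood at -1.64 (SE 2.01, adjusted p = 0.807 in the edgeR fit without the 3 libraries that stand apart). mt-Nd5, mt-Cytb, mt-Co2 and mt-Atp6 were the 4 that kept a negative value there.

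**Figure D5:**
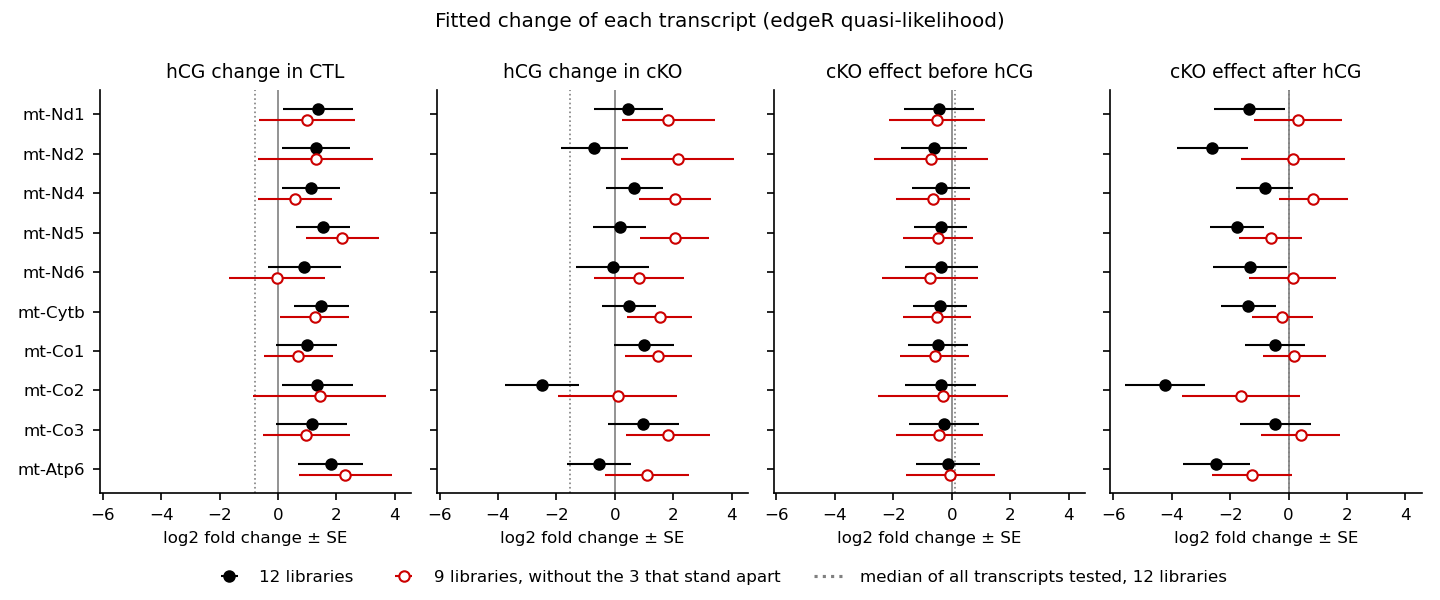
Fitted log2 fold change with its SE (horizontal axis) of each transcript in the 4 comparisons of 2 groups, from the fit on 12 libraries (black) and on the 9 without those that stand apart (red, open), with dotted lines at the median of all transcripts tested. For cKO after hCG the black points lie between -4.24 and -0.45 and the red ones on both sides of 0.

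Over both times all 10 were lower in cKO, with a median of -0.89 beside -0.084 over all transcripts. mt-Co2 had -2.31 (SE 0.89, unadjusted p = 0.00942, adjusted p = 0.259, edgeR), mt-Nd6 -0.84 (SE 0.88, adjusted p = 0.724, edgeR) and mt-Co1 -0.47 (SE 0.73, adjusted p = 0.867, edgeR). edgeR called 0 of 10 and 0.0607% of all transcripts, and 1 of 10 had an unadjusted p under 0.05, with 13.6% of all, which became 5 of 10 without cKO replicate 1 before hCG, with 10.8% of all. DESeq2 called 0 of 10 and 14.1% of all, and limma on log2(TPM + 1) 0 of 10 and 0% of all. Without the 3 libraries that stand apart 9 of 10 were lower, with a median of -0.29 and mt-Co2 at -0.97.

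The test of whether the hCG difference itself differed between the genotypes, cKO minus CTL, gave 9 negative values and 1 positive, mt-Co1 at 0.022, with a median of -0.98 beside -0.59 over all transcripts. mt-Co2 had the largest, -3.86 (SE 1.76, unadjusted p = 0.0283, adjusted p = 0.346, edgeR). edgeR called 0 of 10, with 0.0334% of all transcripts called, and 1 of 10 had an unadjusted p under 0.05, with 13.3% of all, which became 4 of 10 without CTL replicate 1 before hCG, with 11% of all. DESeq2 called 0 of 10 and 14.1% of all, and limma on log2(TPM + 1) 0 of 10 and 0% of all. Both library totals and upper quartile factors gave 10 negative values. Without the 3 libraries that stand apart 7 were positive and 3 negative, with a median of 0.81 and mt-Co2 at -1.33, and leaving out either CTL replicate 1 after hCG or cKO replicate 1 before hCG alone also gave 7 positive values. The comparisons share libraries with one another, so their directions are not independent.

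The SEs of the 10 ran from 0.64 to 1.76 on the log2 scale. In cKO after hCG the largest of them, that of mt-Co2, exceeded the SE of 7.50% of all transcripts tested, and in the other 6 comparisons the largest exceeded that of at most 1.47%, so most transcripts were measured less precisely than these abundant ones.

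The levels of the 10 went together across libraries. Over the 45 pairs, the correlation of log2(CPM + 1) across the 12 libraries had a median of 0.909, from 0.740 for mt-Nd6 with mt-Atp6 to 0.989 for mt-Nd1 with mt-Nd4. All points share their libraries, and the libraries that stand apart are high in every pair. In the other 9 libraries the median was 0.742, from 0.188 for mt-Nd2 with mt-Nd6 to 0.981 for mt-Nd1 with mt-Co3. The light strand transcript was the least like the rest: the median correlation of mt-Nd6 with the others was 0.790 over 12 libraries and 0.352 over 9. In the same 9 libraries the medians of mt-Co2 and mt-Atp6 were 0.583 and 0.604, and those of the other 7 transcripts were from 0.820 to 0.928.

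Among 3447 other transcripts that averaged 50 CPM or more, the 2 most like the mean of the 10 across 12 libraries were ENSMUST00000082411 (348 bases, r = 0.966) and ENSMUST00000082407 (204 bases, r = 0.928). These are the lengths of the mitochondrial genes ND3 and ATP8 in RefSeq. As 88 and 29 of the listed transcripts have these lengths, length alone does not name the 2. ENSMUST00000082411 stood at 184, 35.0 and 30.1 CPM in CTL before hCG, 441, 98.3 and 37.5 CPM in CTL after hCG, 278, 5.99 and 40.6 CPM in cKO before hCG, and 14.7, 11.8 and 53.4 CPM in cKO after hCG. ENSMUST00000082407 ranged from 39.4 CPM in cKO replicate 1 after hCG to 879 CPM in CTL replicate 1 after hCG. Both were highest in the libraries where the 10 were highest, and over the 9 other libraries their r was 0.898 and 0.889.

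No peak of the 4 chromatin lists lay on the mitochondrial genome. The open chromatin lists made by FAIRE from granulosa cells held 21431 peaks before and 22791 after hCG, and the LRH-1 ChIP lists from ovarian tissue 5886 and 9413, each on 20 chromosomes and 0 of them on the mitochondrial one. Whether reads of the mitochondrial genome were removed before peak calling is not stated in these sources, so these lists do not bear on the 10 transcripts.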

How the data were processed

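RNA of 12 libraries was analysed, 3 in each of 4 groups. Per the file headers, the deposited tables from kallisto hold an estimated count and a TPM value per transcript; the submitters' processing notes name Trimmomatic, TopHat2 2.0.12, kallisto, DESeq2 and mm9, without roles. Of the deposited peak lists, whose columns hold a score and, for LRH-1, a fold ratio, −log10 p and −log10 q by the peak file format, only the chromosome was used here. Estimated counts were rounded and tested with edgeR 4.0.16 (R 4.3.3): filterByExpr (32944 transcripts, 95.9% of counts), TMM, a model of the 4 groups, quasi-likelihood tests of 7 contrasts, Benjamini-Hochberg adjustment at 0.05. The SE is the fold change over the root of F, and intervals are 1.96 SE. DESeq2 1.42.0 and limma 3.58.1 were alternatives. The edgeR script was tested on simulated data with less spread than most of the 10 showed within groups. That test therefore does not show how the fit behaves at the spread seen here. The 10 transcripts, the lists and the tests were chosen with earlier results of these data known. All 10 are given with values; full statistics go to each comparison's largest log2 fold change, and to mt-Nd6 and mt-Co1 in the averaged comparisons. Gene lists and cell markers needing transcript names were not used here. Same-numbered libraries correlated in their deviations from group means at over 0.1 in 3 of 3 pairs for cKO before hCG, so the replicate block stands beside that comparison. This held for 2 of 3 pairs for hCG in CTL and 0 of 3 for hCG in cKO and cKO after hCG (range over 18 pairs -0.036 to 0.38). The labels give the numbers no meaning. The overlap without the 3 libraries was added after the data were seen.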

Additional observations from a re-analysis of the deposited data

How the results depend on the processing

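Called transcripts among the 10 stayed at 0 in all 7 comparisons under the 12 alternatives and the 12 fits with 1 library left out. The count over all transcripts did not hold. For hCG in CTL it was 2 and became 3099 with DESeq2, 7 with a fit on the 2 groups, 7 with the replicate block, 4 with upper quartile factors, 1 without the 3 libraries that stand apart, and 0 with limma at either pseudocount, a mean of at least 10 CPM, or no filter. For hCG in cKO 0 became 4137 with DESeq2, 8 with the replicate block, 4 with library totals, and 1 with no filter or the fit on 2 groups. For hCG over both genotypes 57 became 6653 with DESeq2, 122 with upper quartile factors, 30 with no filter, 24 with the replicate block, 19 without the 3 libraries, 7 and 5 with limma on log2(TPM + 0.1) and log2(TPM + 1), and 0 at 10 CPM; of the 57, 39 were higher and 18 lower, against 24 and 52 with library totals and 122 and 0 with upper quartile factors. For cKO before hCG 2 became 1028 with DESeq2, 4 with the fit on 2 groups or library totals, 1 with RLE factors, the replicate block or without the 3 libraries, and 0 with limma, 10 CPM, no filter or upper quartile factors. For cKO after hCG 3 became 3877 with DESeq2, 1 with no filter, and 0 with the fit on 2 groups, limma, 10 CPM, upper quartile factors or without the 3 libraries. For cKO over both times 20 became 3493 with DESeq2, 11 with library totals or no filter, 7 with the replicate block, 4 without the 3 libraries, 2 with upper quartile factors, and 0 with limma or 10 CPM. For the interaction 11 became 3493 with DESeq2, 7 without the 3 libraries, and 0 with limma, 10 CPM or upper quartile factors. With 1 library left out the counts ranged from 0 to 7, 0 to 5, 2 to 39, 0 to 5, 0 to 7, 4 to 20 and 1 to 13 in the same order. The cause was not tested. Among the values given with full statistics, 3 turned sign: mt-Co2 for hCG in cKO to 0.0921 without the 3 libraries or without cKO replicate 1 before hCG (range with 1 library left out -4.15 to 0.0921); mt-Nd6 for hCG over both genotypes to -0.25 with library totals, -0.31 with limma at either pseudocount and -0.32 without CTL replicate 1 after hCG (range -0.32 to 0.86); and mt-Nd2 for cKO before hCG to 2.15 without CTL replicate 1 before hCG (range -3.46 to 2.15). Without the 3 libraries further values turned, among them all but mt-Nd5, mt-Cytb, mt-Co2 and mt-Atp6 for cKO after hCG. Of the 12 libraries, 9 correlated best with one of their own number, a hint from the data and not from the design. With the replicate block 0 of the 10 were called in each comparison. All 10 were then higher for hCG in CTL (median 1.27) and for hCG over both genotypes (1.21). In each of these 2 comparisons 2 of 10 had an unadjusted p under 0.05, with 4.37% of all transcripts for hCG in CTL and 14.4% over both genotypes. The 10 were 9 higher and 1 lower for hCG in cKO (1.26, mt-Co2 at -0.65) and 9 lower and 1 higher for cKO after hCG (-0.54). They were 10 lower for cKO over both times (-0.50), and 6 positive and 4 negative for the interaction (0.058, against 9 negative). Low counts of the 10 themselves limit little here, since the lowest estimated count of any of them in a library was 871, for mt-Co2. The number of detected transcripts in the rest of the library did differ between groups.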
